A study of Mus musculus with 4 samples.

Results

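Pigment epithelium-derived factor (PEDF) is the secreted glycoprotein encoded by Serpinf1. It belongs to the serpin family but does not inhibit proteases, and it is best known as an inhibitor of blood vessel growth and as a neurotrophic factor. Cells are thought to sense it through several surface proteins, namely the lipase encoded by Pnpla2, the laminin receptor encoded by Rpsa, the transmembrane proteins encoded by Plxdc1 and Plxdc2, and the Wnt coreceptor encoded by Lrp6. These 6 genes were taken from the arrays by matching the RefSeq accession of each probe to its gene symbol, without use of any measured value. They are represented by 10 of the 56605 probes that are not controls, and by 6 of the 22911 gene symbols that could be assigned.

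RNA was measured in ID8G cells and GO2 cells, both of which are mouse ovarian cancer cells of the ID8 line that carry GFP. ID8 itself arose from ovarian surface epithelial cells of the mouse that transformed spontaneously. GO2 cells were sorted from omental tumors after 2 successive rounds of intraperitoneal injection, and ID8G is the parental line. The sort took cells positive for GFP and negative for the leukocyte protein CD45. Both lines were cultured in the same medium with low serum, insulin, transferrin and selenite, so GO2 RNA came from cells in culture and not directly from a tumor. Each line was hybridized to 2 one-color Agilent arrays (ID8G_1, ID8G_2, GO2_1 and GO2_2). The labels do not say whether the arrays of a line came from separate cultures, so the tests measure the spread between arrays. GO2 is a single selected line, so selection cannot be told apart from other properties of that line.

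Levels are log2 intensities from which each array's 75th percentile was subtracted. A probe was called higher or lower in GO2 cells when its limma p, adjusted by Benjamini-Hochberg over all probes, was below 0.05 and the difference was at least 2-fold. The scanner software found between 27507 and 28876 probes per array well above background, and no spot was saturated. A permutation of 2 against 2 arrays cannot give an exact two-sided p below 0.333, so the tests rest on the spread shared across all 28370 probes tested. Of these, 4.5% were called higher and 3.34% lower in GO2 cells, together 7.84%, and 35.9% passed the adjusted p at any size. Both lines carried the epithelial markers of ovarian surface cells, with Krt18, Krt8, Krt19, Wt1 and Msln well above background on every array, whereas Krt7 and Epcam were well above background on none.

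All 10 probes of the 6 genes passed the filter for signal and were tested. By the brightest probe of each gene, 1 of the 6 genes was called higher in GO2 cells (Serpinf1) and 0 were called lower with limma, whereas 5.98% of all gene symbols tested were called higher and 3.95% lower. Serpinf1 entered the test only through GO2 cells, where it was high. With signal required on all 4 arrays, 5 of the genes were tested and 0 were called. At an unadjusted threshold of 0.05, 3 of the 6 genes passed, against 53.1% of all gene symbols. A further 2 receptors passed the adjusted p without reaching 2-fold, Plxdc2 on the higher side and Lrp6 on the lower side. Over all gene symbols tested, 41% passed the adjusted p at any size. The arrays of the cell lines did not overlap for any of the 10 probes, as was true of 73.6% of all probes tested.

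**Figure D1:**
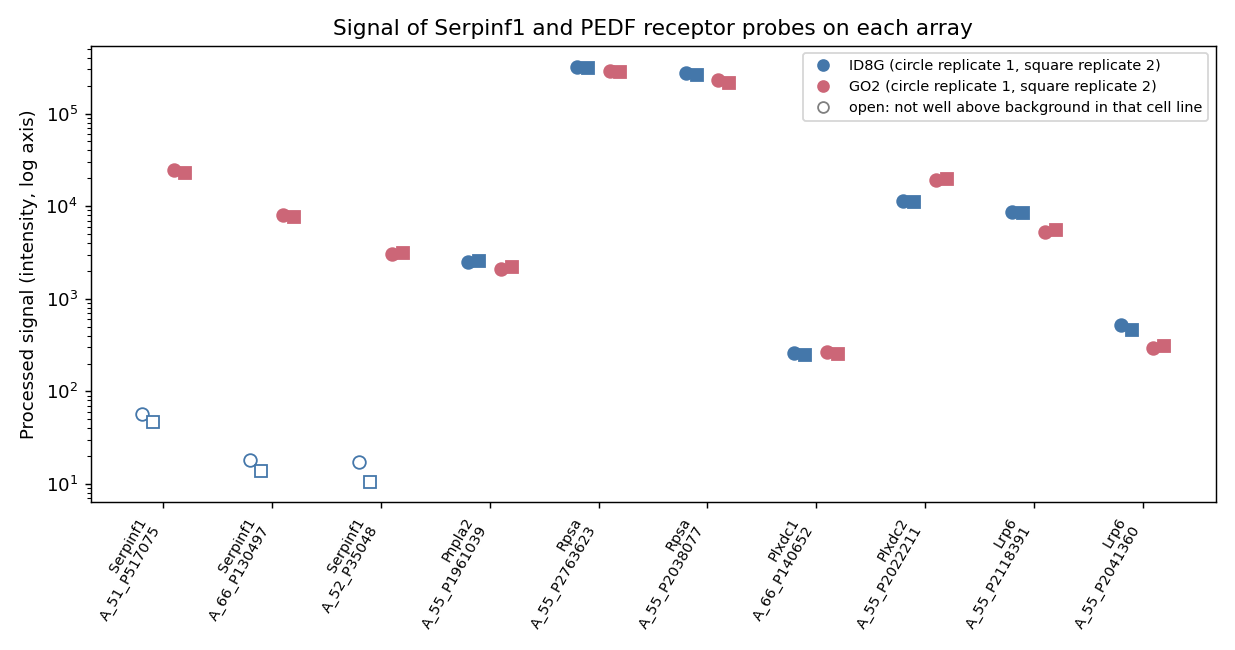
Processed signal (log axis) of the 10 probes for Serpinf1 and the PEDF receptors on each of the 4 arrays, with circles for replicate 1, squares for replicate 2 and open symbols where neither array of that cell line was well above background. The Serpinf1 probes sit between 3079 and 24328 on the GO2 arrays and below 58 on the ID8G arrays, whereas each receptor probe differs by less than 2-fold between the lines.

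For the ligand gene, the brightest Serpinf1 probe (A_51_P517075) had signals of 57.3 and 46.2 in ID8G cells and 24328 and 22697 in GO2 cells. Neither ID8G array was well above background for this probe, and its signals there lay just under the lowest ones that were, 58.4 and 47.2. The corresponding levels were -3.56 and -3.86 in ID8G cells against 5.26 and 5.18 in GO2 cells. With the ID8G arrays raised to the lowest level well above background, GO2 cells were at least 476-fold higher (log2 difference of at least 8.90). With normexp background correction the log2 difference was 7.53, smaller than this bound, which holds for the background correction of the scanner software only, and it was 8.72 with scaling to the spike-in controls. The difference between the measured means, -3.71 ± 0.21 and 5.22 ± 0.06 (SD over 2 arrays), was 8.93 ± 0.12 (SE).

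The 2 dimmer Serpinf1 probes showed the same separation. A_66_P130497 had signals of 18.2 and 13.8 in ID8G cells and 7937 and 7688 in GO2 cells, at least 158-fold higher (limma adjusted p = 0.000182). A_52_P35048 had signals of 17.4 and 10.6 in ID8G cells and 3079 and 3115 in GO2 cells, at least 62.8-fold higher (limma adjusted p = 0.000342). All 3 probes were well above background on both GO2 arrays and on neither ID8G array, so each bound is set by the brightness of its probe. With normexp background correction the log2 differences of these dimmer probes were 6.46 and 5.09, also below their bounds. Serpinf1 was singled out by the study from these same arrays, so its direction is not independent evidence. With Welch's t-test, an alternative chosen after seeing the data that does not share the spread across probes, A_51_P517075 had an adjusted p of 0.134, and over all probes 0 were called higher and 3 lower.

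The sequence before the Serpinf1 start is shown because this was the gene of the family that was called. The table of promoters from RefSeq (GRCm38.p6) held 3 of the 6 genes, Serpinf1, Pnpla2 and Rpsa. The 250 bases before the Serpinf1 start lie on the minus strand at chr11:75422624-75422873 and read 5′ to 3′ as follows, with capitals for TGACCT, the reverse complement of AGGTCA, and for CACATG, the reverse complement of CATGTG.
Serpinf1: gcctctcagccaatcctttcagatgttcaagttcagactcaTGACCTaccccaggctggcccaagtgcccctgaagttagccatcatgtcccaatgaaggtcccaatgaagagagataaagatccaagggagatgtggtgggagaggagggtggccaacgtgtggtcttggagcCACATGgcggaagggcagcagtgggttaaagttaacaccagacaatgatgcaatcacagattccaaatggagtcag
Both strands of all 32851 promoters of the table were searched over the same 250 bases. AGGTCA is the core sequence recognized by retinoic acid and estrogen receptors and occurred once before Serpinf1, with 14.0% of all promoters holding it. CATGTG is an E-box of the kind bound by Mitf and also occurred once, with 12.3% of all promoters holding it. CCAAT occurred 3 times on the strand printed (33.9% of promoters hold at least 1 copy), whereas CACGTG (6.02%) and TATAA (22.8%) did not occur, and no match overlapped another. The Serpinf1 sequence held 2 CG dinucleotides, against 12 before Pnpla2 and 21 before Rpsa, and a median of 6 over all promoters. A match is only a match of letters.

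Pnpla2 encodes adipose triglyceride lipase, which starts the breakdown of stored fat and is also known as a PEDF receptor. Its signals were 2527 and 2533 in ID8G cells and 2091 and 2213 in GO2 cells. The levels of 1.90 and 1.92 in ID8G cells lay above those of 1.72 and 1.82 in GO2 cells without overlap. The difference was -0.14 ± 0.06 (SE), with a 95% interval from -0.31 to 0.02, and did not pass the test (limma adjusted p = 0.139). Scaling to the spike-in controls gave -0.35 with an adjusted p of 0.0366.

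Rpsa encodes a protein of the small ribosomal subunit that also acts at the cell surface as a laminin receptor. The brightest probe had signals of 320939 and 310478 in ID8G cells and 287135 and 278667 in GO2 cells, a difference in level of -0.07 ± 0.05 (SE, limma adjusted p = 0.353). The other probe had signals of 275416 and 260796 in ID8G cells and 232470 and 216362 in GO2 cells, a difference of -0.17 ± 0.06 (SE, limma adjusted p = 0.107). Both probes were lower on both GO2 arrays, by amounts that did not pass the test in the reported fit. The 95% intervals ran from -0.21 to 0.07 and from -0.34 to 0.0028. Over the alternatives tried, the difference of the brightest probe reached -0.28, and its adjusted p stayed above 0.05. The difference of the other probe reached -0.37, and its lowest adjusted p fell below 0.05. The mouse genome holds many processed copies of Rpsa that are nearly identical in sequence, and how far the probes tell them apart was not tested.

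Plxdc1 and Plxdc2 encode related single-pass membrane proteins, the first of which is known as a marker of tumor endothelium. Plxdc1 had signals of 258 and 249.6 in ID8G cells and 266 and 254 in GO2 cells, or levels of -1.39 and -1.42 against -1.26 and -1.30. This was a difference of 0.12 ± 0.05 (SE), with a 95% interval from -0.02 to 0.27 (limma adjusted p = 0.145), and its sign turned to -0.08 when the arrays were scaled to the spike-in controls. Plxdc1 was therefore measured in both lines, and no direction could be given.

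Plxdc2 was the receptor with the clearest difference on the higher side. Its signals were 11383 and 11145 in ID8G cells and 19112 and 19551 in GO2 cells, with levels of 4.08 and 4.06 against 4.91 and 4.96. Both GO2 arrays lay far above both ID8G arrays relative to the gap between replicates. The difference of 0.87 ± 0.05 (SE) corresponds to 1.83-fold (limma adjusted p = 0.00132), short of the 2-fold needed for a call. The 95% interval ran from 0.72 to 1.01, and the estimate stayed between 0.66 and 0.89 over the alternatives tried. Of the alternatives, Welch's t-test alone put its adjusted p above 0.05 (0.144).

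Lrp6 encodes the receptor that, with Frizzled proteins, transmits canonical Wnt signals. Its brightest probe had signals of 8681 and 8504 in ID8G cells and 5243 and 5589 in GO2 cells, and the dimmer probe had signals of 527 and 462 against 292 and 312. Both probes were lower on both GO2 arrays. The differences were -0.58 ± 0.06 (SE, limma adjusted p = 0.00579) and -0.62 ± 0.09 (SE, limma adjusted p = 0.0111), and ID8G cells were 1.49-fold and 1.54-fold higher. Neither probe reached 2-fold. The estimate for the brightest probe ranged from -0.78 to -0.52 over the alternatives, and its adjusted p went above 0.05 without a filter on dim probes (0.054), with the plain t-test (0.0568) and with Welch's t-test (0.212).

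**Figure D2:**
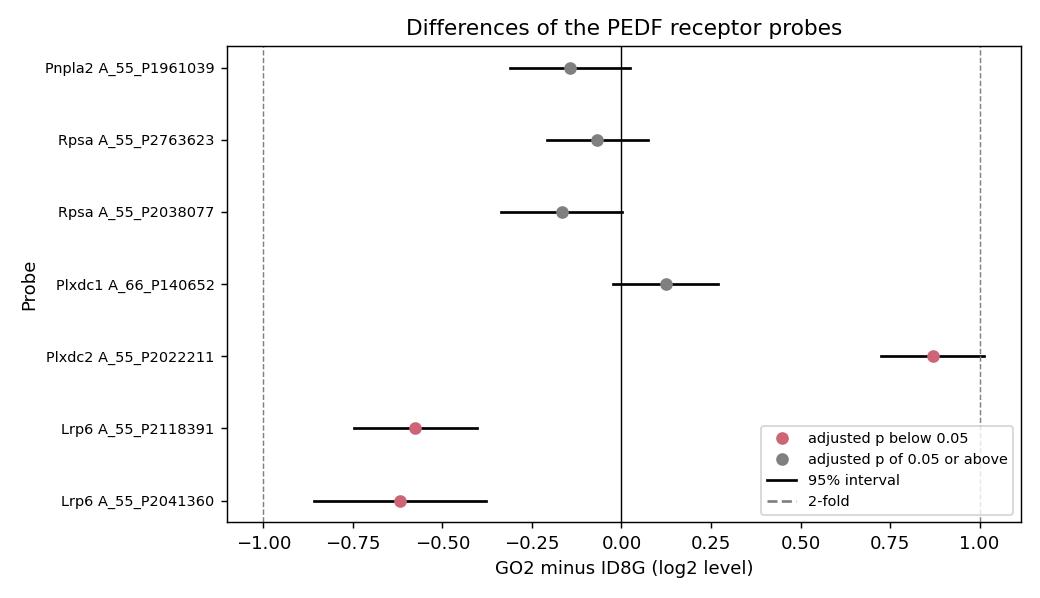
Difference in log2 level between GO2 and ID8G cells for the 7 receptor probes, with the estimate as a point, its 95% interval as a line and dashed lines at 2-fold. Plxdc2 lies at 0.87 and the Lrp6 probes at -0.58 and -0.62, whereas the intervals for Pnpla2, Rpsa and Plxdc1 include 0.

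PEDF is also reported to bind collagen I, the beta subunit of ATP synthase, and hyaluronan, a polysaccharide made by the enzymes that the Has genes encode. A mixed list of 8 genes with a probe held the collagen I chains, the ATP synthase subunit, the hyaluronan synthases, Tnmd and Serpinf2. Of these, 5 were tested, and 4 were called higher in GO2 cells and 0 lower, against 5.98% and 3.95% of all gene symbols. Has1 and Has2 entered the test only through GO2 cells, where they were high, and with signal required on all 4 arrays 2 of 3 tested genes were called, both of them collagen chains.

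Col1a2, a chain of collagen I, had levels of -2.93 and -3.35 in ID8G cells and 4.35 and 4.34 in GO2 cells, a difference of 7.49 ± 0.15 (SE, limma adjusted p = 0.000207). Col1a1, the other chain, had levels of 1.30 and 1.33 against 5.98 and 6.04, a difference of 4.69 ± 0.05 (SE, limma adjusted p = 0.000182). The GO2 arrays lay above the ID8G arrays for both chains. Has2, a hyaluronan synthase, was not well above background in ID8G cells and was at least 4.79-fold higher in GO2 cells (limma adjusted p = 0.00296), although the plain t-test did not call it. Has1 was at least 1.32-fold higher, and its call was lost with a floor on dim signals or normexp background correction. The ATP synthase subunit gene, listed as Atp5b, differed by -0.14 ± 0.05 (SE) at its brightest probe and was not called (limma adjusted p = 0.114). Serpinf2, which neighbors Serpinf1 and encodes the plasmin inhibitor of the same serpin subfamily, was not well above background on any array.

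The partners of Pnpla2 control access of the lipase to the lipid droplet. Of 20 genes of lipid droplet breakdown with a probe, 10 were tested, 1 was called higher and 1 lower, and 5 more were lower by adjusted p without reaching 2-fold. Of all gene symbols tested, 5.98% were called higher and 3.95% lower, and 41% passed the adjusted p at any size. With signal required on all 4 arrays, 9 genes of the list were tested, 0 were called higher and 1 lower. The median difference over the 10 genes was -0.30. Hilpda, an inhibitor of the lipase, had levels of 3.24 and 3.28 in ID8G cells and 1.67 and 1.61 in GO2 cells. Its difference was -1.62 ± 0.06 (SE, limma adjusted p = 0.00041), and the arrays of the lines were well separated.

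Abhd5, the coactivator of the lipase, had levels of 0.44 and 0.45 in ID8G cells and 0.15 and 0.12 in GO2 cells. This difference of -0.31 ± 0.05 (SE) passed the adjusted p (limma, 0.0153) but not 2-fold. G0s2, another inhibitor, was not well above background on any array. Among the brightest genes of the list, the droplet coat proteins Plin2 (-0.83 ± 0.07 SE, limma adjusted p = 0.00256) and Plin3 (-0.28 ± 0.06 SE, limma adjusted p = 0.0294) were lower by less than 2-fold, and Cop1, which encodes a ubiquitin ligase of the lipase, was not called (0.17 ± 0.05 SE). The call for Pnpla5, a related lipase, rested on dim probes: it was at least 1.66-fold higher and was lost with normexp background correction, spike-in scaling, a floor on dim signals or the plain t-test.

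Rpsa was set beside the other proteins of the small ribosomal subunit. All 32 of these genes were tested, and 0 were called in either direction with limma, against 9.93% of all gene symbols. At an unadjusted threshold of 0.05, 6 of them passed (53.1% of all gene symbols did), and the plain t-test and Welch's t-test also called 0. Their differences lay between -0.22 and 0.07, with a median of -0.05, and both Rpsa probes fell within that range. The brightest of them, Rps18, Fau and Rps10, differed by -0.05 ± 0.06, -0.05 ± 0.05 and -0.02 ± 0.06 (SE).

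Among laminin chains and other laminin receptors, 14 of 18 genes were tested, and 1 was called higher and 3 lower in GO2 cells, against 5.98% and 3.95% of all gene symbols. A further 1 gene was higher and 4 were lower by adjusted p without reaching 2-fold, and 41% of all gene symbols passed the adjusted p at any size. The median difference was -0.33, and normexp background correction left 0 called higher and 2 lower. With signal required on all 4 arrays, 12 genes of the list were tested, 0 were called higher and 3 lower. Itga6, an integrin subunit that binds laminin, had levels of 5.43 and 5.49 in ID8G cells and 3.41 and 3.51 in GO2 cells, a difference of -2.0 ± 0.06 (SE, limma adjusted p = 0.000325), and its 2 other probes were lower as well. Bcam, a receptor for laminins that contain the Lama5 chain, was lower by -1.09 ± 0.06 (SE, limma adjusted p = 0.000976), or by -0.998 with normexp background correction, which ended its call, and Lama5 itself by -1.27 ± 0.09 (SE, limma adjusted p = 0.00181). Lama4 was called higher near background, at least 1.38-fold, and was no longer called without either GO2 array (limma adjusted p = 0.0869 without replicate 1 and 0.0906 without replicate 2), nor with normexp background correction, a floor on dim signals, no filter or the plain t-test. The brightest genes that were not called were Itgb1 (-0.30 ± 0.05 SE, limma adjusted p = 0.0173), Dag1 (-0.04 ± 0.05 SE) and Lamb1 (-0.05 ± 0.09 SE). Lama2, picked out after its values were seen, was not well above background in GO2 cells and was not called (limma adjusted p = 0.129). Its measured difference was -2.27 ± 0.92 (SE). Its ID8G levels of -1.88 and -3.59 lay far apart, so no minimum fold is given.

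The Wnt pathway genes around Lrp6 moved in both directions. Of 47 genes with a probe, 35 were tested, 7 were called higher and 3 lower in GO2 cells, together 28.6% of those tested against 9.93% of all gene symbols. The median difference was 0.14, and -0.07 with scaling to the spike-in controls. Normexp background correction left 4 called higher and 2 lower, and the plain t-test left 3 in each direction. By adjusted p, 7 more genes were higher and 1 more was lower without reaching 2-fold, and 41% of all gene symbols passed the adjusted p at any size. A further 10 genes were not well above background on any array. Among the called genes, Dkk3, Fzd8 and Lef1 entered the test only through GO2 cells, where they were high, and Dkk2 only through ID8G cells. With signal required on all 4 arrays, 29 genes of the list were tested, 4 were called higher and 2 lower.

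The called Wnt genes on the higher side included secreted factors, receptors and nuclear proteins. Dkk3, a secreted member of the Dickkopf family, had levels of -5.86 and -6.15 in ID8G cells, below background, and -0.12 and -0.12 in GO2 cells, at least 11.8-fold higher (limma adjusted p = 0.000193). The Frizzled receptor genes Fzd6 and Fzd1 were higher by 2.07 ± 0.07 and 1.52 ± 0.06 (SE, limma adjusted p = 0.000351 and 0.000442), and Fzd8, not well above background in ID8G cells, had a measured difference of 1.31 ± 0.10 (SE). Tcf7l1, a transcription factor that mostly represses Wnt targets, was higher by 1.98 ± 0.16 (SE, limma adjusted p = 0.00268). Fzd8 and Tcf7l1 were not called by the plain t-test, nor Fzd8 with normexp background correction. Rnf43, a ubiquitin ligase that removes Frizzled receptors, was higher by 1.11 ± 0.11 (SE), and by 0.98 without ID8G replicate 1, which ended its call, as did normexp background correction, spike-in scaling and the plain t-test. Lef1, a transcription factor of the pathway, was at least 1.73-fold higher near background, and its call was lost without ID8G replicate 1 (adjusted p = 0.0601), ID8G replicate 2 (0.0626) or GO2 replicate 2 (difference of 0.80), and with normexp background correction, spike-in scaling, a floor on dim signals, no filter or the plain t-test.

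On the lower side, Lgr5, a receptor for R-spondins and a Wnt target, had levels of 1.89 and 1.90 in ID8G cells and -0.96 and -0.95 in GO2 cells. This was a difference of -2.85 ± 0.05 (SE, limma adjusted p = 0.000189), and the 4 arrays formed tight pairs. Dkk2, a secreted ligand of Lrp6, was not well above background in GO2 cells and was at least 4.17-fold lower there (limma adjusted p = 0.00101). Sp5, a transcription factor induced by Wnt signals, was lower by -1.04 ± 0.05 (SE, limma adjusted p = 0.000892), and by -0.94 with normexp background correction, which ended its call. Lrp5, the closest relative of Lrp6, had levels of 0.89 and 0.79 in ID8G cells and 0.89 and 0.82 in GO2 cells, a difference of 0.01 ± 0.06 (SE, limma adjusted p = 0.884) with overlapping arrays. Mesd, the chaperone that folds Lrp6, Dvl3, which transmits the signal inside the cell, and Ctnnb1, which encodes beta-catenin, were the brightest genes not called, with differences of 0.06 ± 0.06, 0.11 ± 0.12 and 0.14 ± 0.05 (SE).

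**Figure D3:**
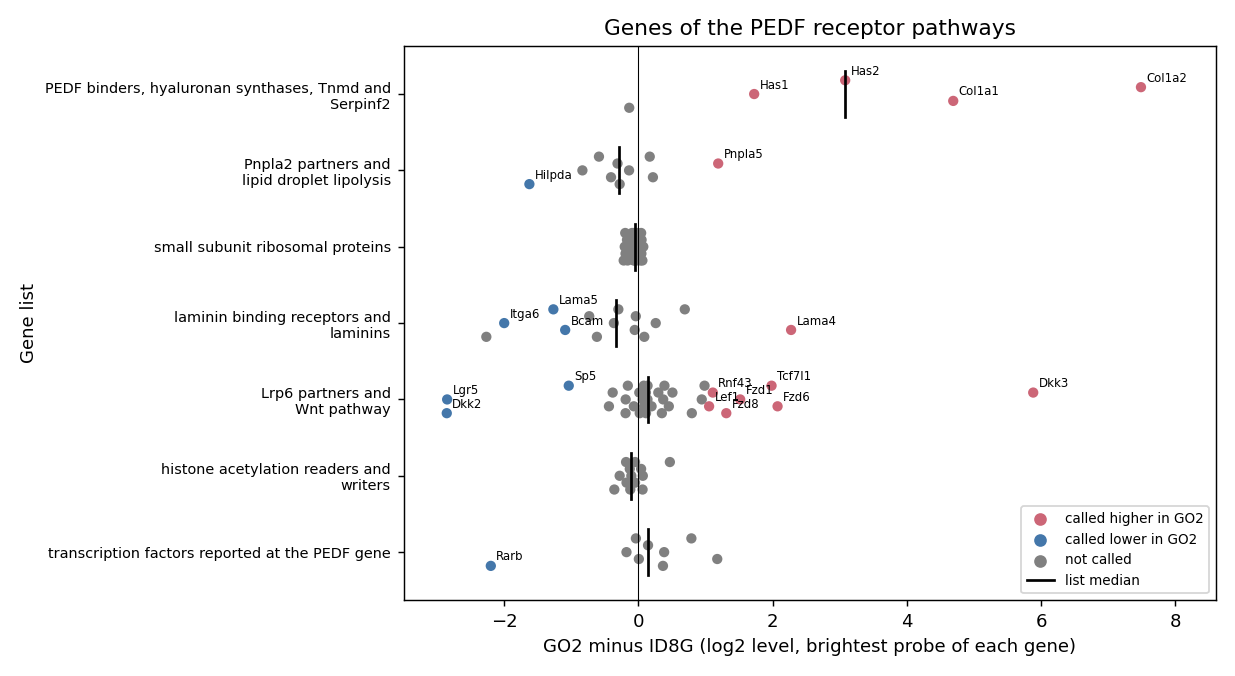
Difference in log2 level between GO2 and ID8G cells for the brightest probe of each tested gene in 7 lists around PEDF and its receptors, with called genes colored and named and a bar at the median of each list. The small subunit ribosomal proteins lie between -0.22 and 0.07, whereas the Wnt list runs from Lgr5 and Dkk2 near -2.86 to Dkk3 at 5.88, and for genes below background in 1 line the point is the measured difference and not the bound given in the text.

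The study asked how the PEDF gene is controlled through acetylated histones, so genes for readers, writers and related demethylases were examined. All 13 genes listed were tested, and 0 were called with limma, against 9.93% of all gene symbols. At an unadjusted threshold of 0.05, 5 of the listed genes passed, against 53.1% of all gene symbols. By adjusted p, 1 acetyltransferase gene was higher (Kat2a, 0.47) and 2 were lower (Ep300, -0.36, and Kat2b, -0.28) without reaching 2-fold. Of all gene symbols, 41% passed the adjusted p at any size. Kat2a, Ep300 and Kat2b were named after their values were seen. The plain t-test and Welch's t-test also called 0 of them. Their differences ranged from -0.36 to 0.47, with a median of -0.11. Brd2, which encodes a bromodomain protein, and the acetyltransferase genes Kat5 and Crebbp were the brightest of the list and differed by -0.12 ± 0.06, 0.06 ± 0.05 and -0.11 ± 0.08 (SE) and were not called.

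Of 9 genes for transcription factors reported to act at the PEDF gene, all were tested, 0 were called higher and 1 was called lower with limma, against 3.95% of all gene symbols called lower. At an unadjusted threshold of 0.05, 6 passed, against 53.1% of all gene symbols. A further 3 (Usf1, Rara and Esr1, of which Usf1 and Esr1 were named after their values were seen) were higher by adjusted p without reaching 2-fold. The gene called lower was Rarb, a retinoic acid receptor, with levels of 0.56 and 0.42 in ID8G cells and -1.79 and -1.64 in GO2 cells (difference of -2.20 ± 0.09 SE, limma adjusted p = 0.000502). A further Rarb probe gave -2.26, and the remaining probe was not tested. The brightest factors that were not called were Trp63 (-0.18 ± 0.05 SE), Rarg (-0.04 ± 0.05 SE) and Rara (0.37 ± 0.05 SE).

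The neighbors of Serpinf1 in the RefSeq gene order were examined on both sides. Of the nearest 10 genes with a tested probe, 1 was called higher and 0 lower, a share near the 9.93% of all gene symbols called in either direction, and their median difference was 0.16. Hic1, a transcriptional repressor gene and the fifth tested gene on one side, had levels of -3.85 and -4.10 in ID8G cells, not well above background, and 1.30 and 1.22 in GO2 cells. It was at least 30.6-fold higher (limma adjusted p = 0.000196). The tested genes between Hic1 and Serpinf1 (Ovca2, Dph1, Rpa1 and Smyd4) had differences of 0.37, -0.03, 0.18 and -0.20. On the other side, Wdr81 (0.78 ± 0.07 SE, limma adjusted p = 0.00306) and Mir22hg, the host transcript of a microRNA (0.98 ± 0.05 SE, limma adjusted p = 0.000859), passed the adjusted p without reaching 2-fold. Tlcd2, Prpf8 and Rilp differed by -0.05, 0.14 and 0.14 and were not called.

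**Figure D4:**
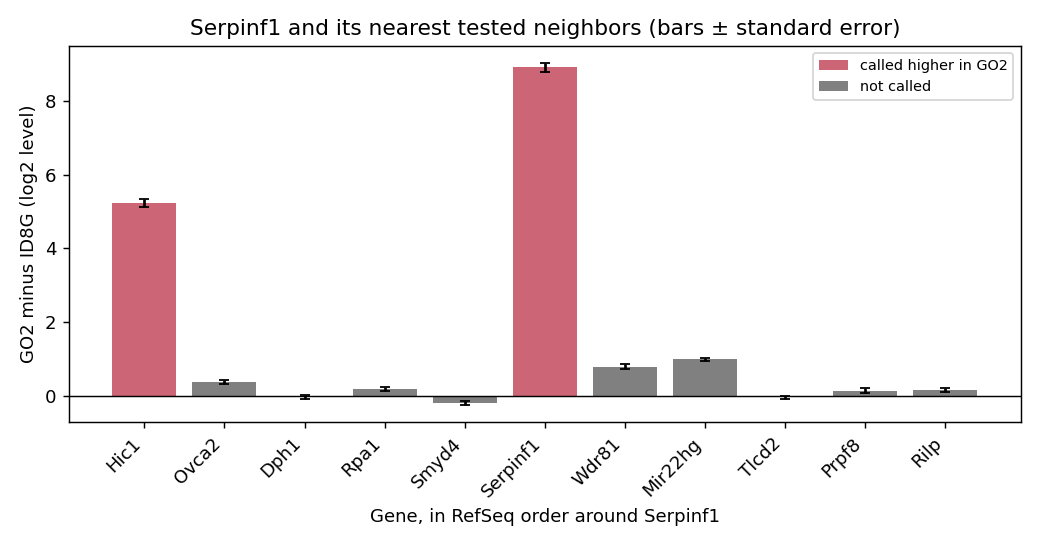
Difference in log2 level between GO2 and ID8G cells for Serpinf1 and the nearest tested genes in RefSeq order, with bars for the measured difference and lines for its standard error. Serpinf1 at 8.93 and Hic1 at 5.23 are called higher, with ID8G signals not well above background, whereas the genes between them lie between -0.20 and 0.37.

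The genes whose pattern over the 4 arrays was most like that of Serpinf1 were found by the Euclidean distance between centered levels. They were Col8a1 (distance of 0.335), Cd302 (0.907), Ddr2 (0.978), Col1a2 (1.44) and Fbln5 (1.55). Col8a1, a network-forming collagen, had levels of -5.65 and -5.95 in ID8G cells and 3.44 and 3.46 in GO2 cells. Col8a1, Cd302, Ddr2, a collagen receptor kinase, and Fbln5, an elastic fiber protein, were not well above background in ID8G cells. For Plxdc2 the nearest genes were 4930432K21Rik (0.0215), Efemp2 (0.0307) and Cul7 (0.0315), for Plxdc1 Mitd1 (0.008), Pard6b (0.0089) and Psmb3 (0.0103), and for Pnpla2 4632427E13Rik (0.0115), Kdm4b (0.0125) and Tbc1d31 (0.0144). With 2 cell lines, likeness over 4 arrays describes mostly the size of the difference, and where a gene was below background in ID8G cells, as Serpinf1 was, its distance and rank depend on signals that were not well above background.

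Markers of other cells were read beside Serpinf1, since fewer cells of a type and less RNA per cell cannot be told apart in bulk RNA. Of 11 fibroblast markers, 6 were tested and 5 were called higher in GO2 cells, against 5.98% of all gene symbols. They were Col1a1, Col1a2, Col3a1, Pdgfra and Pdgfrb, of which the collagen I chains were also counted above. Pdgfrb entered the test only through GO2 cells, and with signal required on all 4 arrays 4 of 5 tested markers were called higher. Pdgfra, a growth factor receptor, was higher by 3.70 ± 0.08 (SE, limma adjusted p = 0.000208), Col3a1 by 4.2 ± 0.09 (SE, limma adjusted p = 0.000212), and Pdgfrb was at least 2.42-fold higher. The other markers Lum, Thy1, Fap, Dpt and Pi16 were well above background on no array, and Dcn was lower in GO2 cells (-0.63 ± 0.05 SE, limma adjusted p = 0.00309). Among the dim ones, Dpt had signals of 11.9 and 12.5 in ID8G cells and 38.3 and 42.8 in GO2 cells, whereas the arrays of Lum, Thy1, Fap and Pi16 overlapped. Without a filter on dim probes, 6 of the 11 markers were called higher. The summed signal of the list was 48197 and 45829 in ID8G cells and 95363 and 94498 in GO2 cells. Most of the ID8G sum came from Dcn, with signals of 45480 and 43198 in ID8G cells and 26956 and 26767 in GO2 cells. The part of these markers in the Serpinf1 difference was not tested.

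Of 10 macrophage markers, 4 were tested and 0 were called with limma (1 passed an unadjusted threshold of 0.05). That marker, Cd14, was lower by adjusted p without reaching 2-fold (-0.69 ± 0.05 SE, limma adjusted p = 0.0021). Of all gene symbols tested, 9.93% were called in either direction, 41% passed the adjusted p and 53.1% the unadjusted threshold. Adgre1, Ptprc, Lyz2, Mrc1, Cd163 and Tyrobp were well above background on no array. GO2 cells had been sorted as negative for CD45, which Ptprc encodes, so leukocytes were selected against. Summed macrophage signal was 15115 and 16796 in ID8G cells and 13787 and 13681 in GO2 cells, mostly from Itgam. The adipocyte list had 3 of 8 genes tested, with Fabp4 called lower (at least 6.34-fold, limma adjusted p = 0.000851), Pparg and Lep not called, and Adipoq not tested. Pparg was lower by adjusted p without reaching 2-fold (-0.42 ± 0.07 SE, limma adjusted p = 0.0151). The summed signal of the adipocyte list was 2637 and 2477 in ID8G cells against 1829 and 1625 in GO2 cells. Of 7 endothelial markers 1, Pecam1, was tested and was not called, and the summed signal was between 126 and 158 on all arrays.

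The epithelial and mesothelial lists were higher in sum in ID8G cells. Summed epithelial signal was 445179 and 436012 in ID8G cells and 233048 and 232319 in GO2 cells, and Krt19 was called lower (-1.65 ± 0.05 SE, limma adjusted p = 0.00034) among 6 genes tested. Krt18 (-0.81 ± 0.05 SE, limma adjusted p = 0.00162) and Krt8 (-0.55 ± 0.05 SE, limma adjusted p = 0.00438) were lower by adjusted p without reaching 2-fold, and Wt1 was not called (-0.10 ± 0.10 SE). Summed mesothelial signal was 195107 and 197428 against 101375 and 102485, with 8 genes tested, Upk3b called higher (1.08 ± 0.05 SE, limma adjusted p = 0.000787, and 0.87 with spike-in scaling, which ended its call) and Krt19 called lower. Krt19, Wt1 and Msln stand in both lists, and Krt19 alone had signals of 114415 and 110663 in ID8G cells and 33543 and 33807 in GO2 cells. The median difference of the mesothelial list was -0.02. Of all gene symbols tested, 5.98% were called higher and 3.95% lower. The part of these 2 lists in the Serpinf1 difference was not tested either.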

How the data were processed

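RNA of ID8G and GO2 cells was measured on 2 arrays each. The authors deposited scanner output of Feature Extraction 11.5.1.1, in which the intensity of each spot is on a linear scale, background-corrected and not normalized between arrays. The authors also deposited log2 values, scaled to the 75th percentile and centered per probe, which served for 1 alternative. All per-sample columns of that table were used. The number of arrays limits the precision.

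Spots marked as outliers were left out, spots of a probe were averaged, and the 75th percentile of the log2 intensity over probes that are not controls was subtracted. A probe entered the fit when both arrays of either cell line were well above background. The model, made with limma 3.58.1 (R 4.3.3), had 1 term, the cell line, and p-values were adjusted by Benjamini-Hochberg over all 28370 probes. In 26 probes 1 array had been left out. A gene was represented by its brightest probe. Where neither array of a line was well above background, that line was raised on each array to the lowest level that was, which gives a bound. When tested on simulated data of 28344 probes, the procedure called 176 of 200 changed probes with the right sign and 1 unchanged probe. The simulated noise was normal, with the spread between the arrays of a line, so the simulation cannot show the error between cultures. Its share of changed probes was also far below the 35.9% of probes that passed the adjusted p in the data. Figures were drawn with matplotlib 3.10.9.

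Symbols came from RefSeq accessions (58.3% of probes). The table is for GRCm38.p6 and was used for names, gene order and promoters. The 6 genes, the gene lists, the tests and the alternatives were chosen with earlier results of these data known. Named are all probes of the 6 genes, every called gene and up to 3 of the brightest others of each list, Abhd5, G0s2, Lrp5 and Serpinf2, the genes most like Serpinf1, Plxdc1, Plxdc2 and Pnpla2, and the neighbors of Serpinf1. The result for 1 further gene is not reported here.

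Alternatives tried were spike-in scaling, quantile normalization, centering on the median, normexp (offset of 50), no filter, a filter on all 4 arrays, a floor, outliers kept, an intensity trend, a plain t-test, the deposited table, the replicate number as a block, averaged probes, each array left out and, added after seeing the data, Welch's t-test.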

Additional observations from a re-analysis of the deposited data

How the results depend on the processing

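With limma, Serpinf1 stayed called wherever it was tested, with differences between 7.53 and 9.07, and between 8.78 and 9.07 without 1 array. The filter on all 4 arrays left it untested, so 0 of the 6 genes were then called, with 666 probes higher, 606 lower and 9 listed genes higher (1277, 947 and 17 in the reported fit). Normexp background correction gave 818 probes higher, 517 lower and 11 listed genes higher. Scaling to the spike-in controls, whose 7 probes were 0.15 to 0.28 higher in GO2 cells, moved the median of all probes from -0.02 to -0.23, gave 1434 probes lower, and turned Plxdc1 to -0.084 and Lrp5 to -0.19. Lrp5 also turned to -0.0076 with quantile normalization, to -0.017 with median centering, to -0.034 without ID8G replicate 2 and to -0.02 without GO2 replicate 1 (-0.034 to 0.061 without 1 array). The plain t-test gave 837 probes higher, 591 lower and 10 listed genes higher. Welch's t-test, added after seeing the data, gave 0 probes higher and 3 lower (6976 at an unadjusted threshold of 0.05, against 13663 with limma), an adjusted p of 0.134 for the Serpinf1 difference of 8.93, and 0 of the 6 genes, 0 listed genes higher and 0 listed genes lower. The cause of these changes was not tested beyond the smaller set of probes under the filter.

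Without 1 array, between 1230 and 1311 probes were called higher, 934 to 1011 lower, 15 to 18 listed genes higher and 10 or 11 lower. Replicate numbers did not pair the arrays (correlation of replicate differences 0.0273 across tested probes). A fit with replicate block gave 1251 probes higher and 936 lower, and Serpinf1 had an adjusted p of 0.00424. Of 685 values of single genes under the alternatives, 618 kept their direction and side of the call, 61 lost the call and 6 changed sign. The slide as a block could not be fitted because there was 1 slide. Signals under about 44 to 58, the lowest well above background, give bounds.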
